A study of Mus musculus with 12 samples.

Results

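The Ikaros family of transcription factors (Ikzf1, Ikzf2, Ikzf3, Ikzf4 and Ikzf5) was followed across 4 groups of mouse splenic B cells with 10 array probes of these 5 genes, out of 55681 non-control probes, 26413 of which were named to 20018 genes. Every probe whose transcript accession in the array annotation belonged to 1 of the 5 genes was taken, and each probe is shown on its own. The probes were 2 of Ikzf1, 2 of Ikzf2, 1 of Ikzf3, 3 of Ikzf4 and 2 of Ikzf5. The title of the study names PC4, the protein of Sub1, together with IKAROS and IRF4 in B cell differentiation.

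Ikaros proteins are zinc finger factors that bind DNA through N-terminal fingers and pair with each other through C-terminal fingers, so that members form homodimers and heterodimers. Ikaros (Ikzf1) and Aiolos (Ikzf3) are the members best known in B cells, where they act during early development and restrain the response of mature cells. Helios (Ikzf2) and Eos (Ikzf4) are best known in regulatory T cells, and Pegasus (Ikzf5) is the most divergent member. Ikaros recruits the NuRD and SWI/SNF chromatin complexes and the CtBP and Sin3 corepressors, and in human cells Ikaros and Aiolos are degraded by the cereblon ubiquitin ligase when it is bound by thalidomide analogues.

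The groups were stimulated knockout, stimulated control, resting knockout and resting control cells, with 3 replicates each. Knockout mice were B1-8hi:Sub1fl/fl-Mb1-Cre and control mice were B1-8hi:Sub1fl/fl, so that both genotypes carried the B1-8hi heavy chain knock-in, whose antibodies bind the hapten NP, and floxed Sub1. Stimulated cells were cultured for 72 h with the antigen NP-ficoll at 0.01 ng/mL, CD40 ligand at 0.2 ng/mL and the cytokines IL-5 at 1.5 ng/mL, IL-4 at 5 ng/mL and IL-2 at 100 U/mL, and resting cells are labelled naive. Mb1-Cre is inserted in Cd79a and acts in B lineage cells, so loss of Sub1, presence of Cre and the Cd79a insertion cannot be told apart. The sources do not give the age of the mice or the origin of the replicates. If these were not separate mice, the p-values reflect only how far these samples scatter, in part perhaps from handling. RNA was hybridised to 12 one-colour arrays. Levels are log2 intensities relative to the 75th percentile of the spots detected on all arrays, given as mean ± SD with n = 3, and a change is a difference of such levels with its SE.

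The share of spots well above background ran between 24.3% (stimulated control replicate 2) and 76.8% (stimulated knockout replicate 3), and 0 spots were saturated. Precision is limited by having 3 arrays in a group. Control replicate 1 stood apart from the other replicates: Ddx3y and Eif2s3y were well above background on both of its arrays and on no other, and Xist on all arrays but these. Sub1 probe A_55_P2186287 changed by -0.81 (SE 0.13, limma adjusted p = 0.00983) in stimulated knockout against stimulated control cells and by -0.03 (adjusted p = 0.966) in resting cells, while Sub1 probe A_51_P159352 gave 0.49 (adjusted p = 0.328) in stimulated and -0.51 (adjusted p = 0.479) in resting cells. Which Sub1 exons are floxed is not given in the sources used here, and a probe outside them checks nothing. All 10 listed B cell markers were well above background on every array except stimulated control arrays, where 8 to 10 were.

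Of the 10 family probes, 7 were tested, as were 26271 probes in all, because some group had all 3 of its arrays well above background for them. Ikzf1 A_66_P124139 and Ikzf5 A_52_P582261 were detected on all 12 arrays. Ikzf3 A_55_P2113598 passed only through resting control cells and Ikzf4 A_55_P1979674 only through stimulated knockout cells, so they had to be high there. Ikzf4 A_55_P2119917 passed through resting and stimulated knockout cells but not through control cells, so it had to be high in knockout cells. Neither Ikzf2 probe passed, nor did Ikzf4 A_55_P1979682. The genes lie, in the GRCm38.p6 build, at chr11:11684962-11772930 (Ikzf1), chr1:69531207-69687351 (Ikzf2), chr11:98464610-98546031 (Ikzf3), chr10:128630839-128669671 (Ikzf4) and chr7:131388649-131410518 (Ikzf5). The position of each probe within its transcript was not used here.

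Promoter windows were at hand for Ikzf1 and Ikzf5, of which 1 probe each fell with stimulation in both genotypes, and these are shown because the core of the known Ikaros motif, GGGAA, can be looked for in them. Each window is the 250 bases before a RefSeq transcription start in GRCm38.p6, written 5′ to 3′ along the gene. Capitals mark GGGAA or its reverse complement.
Ikzf1 window 1, chr11:11685675-11685924, plus strand: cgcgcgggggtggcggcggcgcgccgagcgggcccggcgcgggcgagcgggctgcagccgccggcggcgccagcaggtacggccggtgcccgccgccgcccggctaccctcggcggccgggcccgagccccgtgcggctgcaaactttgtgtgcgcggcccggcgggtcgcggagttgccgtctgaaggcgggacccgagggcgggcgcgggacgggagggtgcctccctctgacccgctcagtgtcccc
Ikzf1 window 2, chr11:11689927-11690176, plus strand: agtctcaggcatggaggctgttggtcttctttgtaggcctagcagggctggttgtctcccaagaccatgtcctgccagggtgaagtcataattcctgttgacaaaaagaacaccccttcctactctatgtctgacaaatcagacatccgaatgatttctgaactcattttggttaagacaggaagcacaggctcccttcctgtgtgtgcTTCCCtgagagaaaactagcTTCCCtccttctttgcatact
Ikzf5, chr7:131410479-131410728, minus strand: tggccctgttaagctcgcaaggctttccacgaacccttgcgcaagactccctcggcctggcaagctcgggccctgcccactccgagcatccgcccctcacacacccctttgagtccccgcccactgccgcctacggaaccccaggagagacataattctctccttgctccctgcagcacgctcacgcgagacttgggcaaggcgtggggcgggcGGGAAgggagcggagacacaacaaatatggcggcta
The second Ikzf1 window held 2 matches, both in reverse complement, starting 41 and 21 bases before the start site. The Ikzf5 window held 1 match, starting 36 bases before the start site, and the first Ikzf1 window held 0. A match to GGGAA on either strand was present in 56.2% of 32851 promoter windows of the same length. The longer TGGGAA, which contains GGGAA, was in 21.6% of all windows and in none of the 3 shown. The first Ikzf1 window was rich in G and C (82%), against 64% for Ikzf5 and 47.6% for the second Ikzf1 window. Which Ikzf1 start the probes report was not tested.

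**Figure D1:**
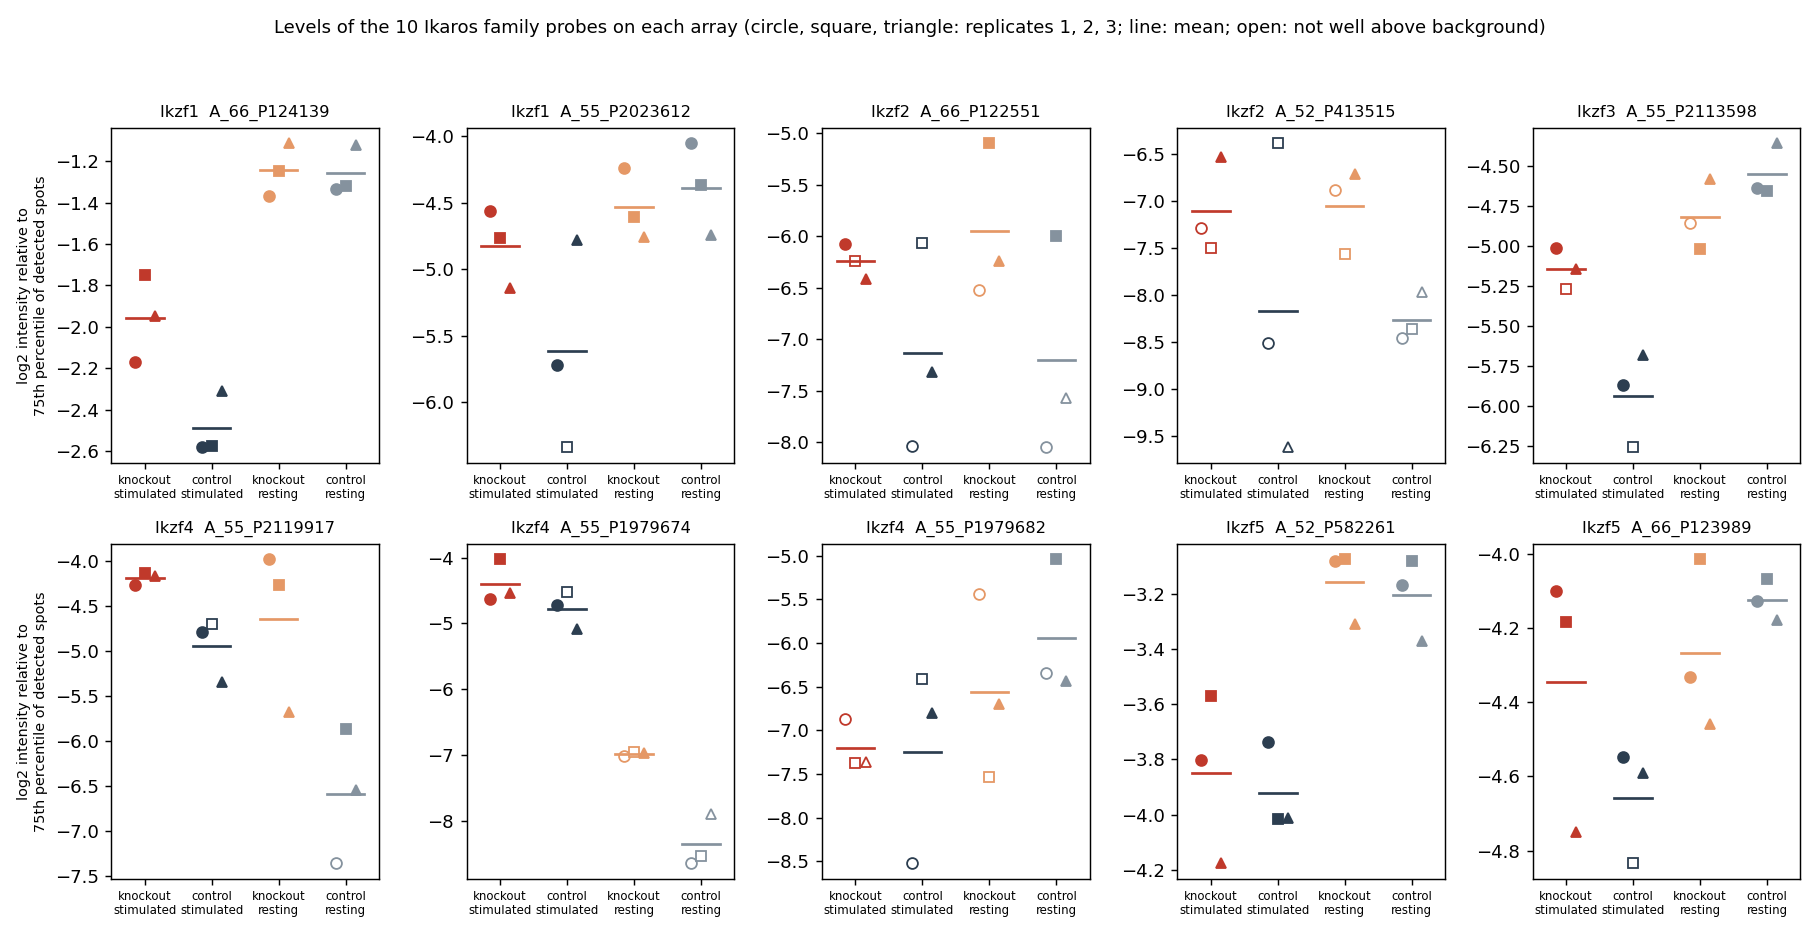
Each panel plots 1 probe, with the level on the y axis (log2 intensity relative to the 75th percentile of detected spots) for knockout stimulated, control stimulated, knockout resting and control resting cells on the x axis. Points are arrays (circle, square and triangle for replicates 1, 2 and 3), open where not well above background, and lines are means; Ikzf1 A_66_P124139 lay lower on every stimulated than on every resting array, and Ikzf4 A_55_P1979674 higher.

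Ikzf1 encodes Ikaros, the founding member of the family, and 1 of its 2 probes fell with stimulation in both genotypes, the other in control cells alone by the test used here. Probe A_66_P124139 read -2.17, -1.75 and -1.95 in stimulated knockout cells, against -1.37, -1.25 and -1.11 in resting knockout cells. It read -2.58, -2.57 and -2.31 in stimulated control cells, against -1.33, -1.32 and -1.12 in resting control cells. No stimulated array reached a resting one in either genotype. The change was -0.71 (SE 0.15, limma adjusted p = 0.00877) in knockout cells and -1.23 (SE 0.15, 2.34-fold lower, adjusted p = 0.000173) in control cells. Within slide 1, which held replicates 1 and 2 of every group, it was -0.65 in knockout and -1.25 in control cells, and within slide 2, which held replicate 3, it was -0.84 and -1.19. In order of level, resting knockout (-1.24 ± 0.13) and resting control cells (-1.26 ± 0.12) did not differ beyond their spread, stimulated knockout cells came next (-1.96 ± 0.21) and stimulated control cells were lowest (-2.49 ± 0.16).

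Markers of B cells moved with this fall. The summed linear level of 10 B cell markers, in units of the 75th percentile, ran between 33.4 and 37.9 in stimulated knockout cells, against 56.8 to 59.4 in resting knockout cells, with 7 of 10 lower. It ran between 23.5 and 31.9 in stimulated control cells, against 65.01 to 70.07 in resting control cells, with 10 of 10 lower. The summed level of 6 plasma cell markers ran between 11.8 and 16.1 in stimulated knockout cells, against 11.8 to 16.6 in resting knockout cells, and between 20.7 and 29.0 in stimulated control cells, against 5.59 to 6.67 in resting control cells. This sum does not stand for every member: 3 of 6 were called higher and 1 lower in knockout cells, with a median change of 0.50. In control cells 5 were higher and 0 lower. Of all tested probes 7.96% were higher and 13.6% lower in knockout cells, and 11.2% higher and 26.6% lower in control cells. The part of the cell makeup in the Ikzf1 values was not tested, and in these bulk samples fewer cells of a type and less RNA per cell cannot be told apart.

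The other Ikzf1 probe, A_55_P2023612, varied more between arrays. It averaged -4.82 ± 0.30 in stimulated knockout cells, against -4.54 ± 0.26 in resting knockout cells, and -5.61 ± 0.79 in stimulated control cells, against -4.39 ± 0.35 in resting control cells. Its change of -1.23 in control cells passed the test (SE 0.36, adjusted p = 0.0228) and was called in 12 of 24 alternatives. It was -0.85 (adjusted p = 0.153) with the percentile over all spots, -0.83 (adjusted p = 0.299) with the array median, -1.02 (adjusted p = 0.235) with quantile normalization and -0.46 (adjusted p = 0.204) with normexp background correction. It was -1.82 within slide 1 and -0.04 within slide 2, and it missed the threshold without any 1 of 4 control arrays (resting replicate 1 or 2, stimulated replicate 1 or 2), at -0.86 without stimulated control replicate 2. Without both arrays of control replicate 1 it was -1.01 (adjusted p = 0.169). In knockout cells the value was -0.29 (SE 0.36, adjusted p = 0.652), and it was above 0 under 4 alternatives. On the array of stimulated control replicate 2 this probe was not well above background.

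Ikzf3 encodes Aiolos, the member closest to Ikaros in B cell function, and it fell with stimulation in control cells. A_55_P2113598 read -5.87, -6.26 and -5.68 in stimulated control cells, against -4.64, -4.66 and -4.36 in resting control cells. These groups did not overlap, and the change was -1.39 (SE 0.19, 2.61-fold lower, adjusted p = 0.000267), with -1.42 within slide 1 and -1.33 within slide 2. In knockout cells it read -5.01, -5.27 and -5.14 stimulated, against -4.86, -5.02 and -4.58 resting. There the groups overlapped and the change of -0.32 (SE 0.19, adjusted p = 0.276) did not pass the test. The probe was well above background on 2 of 3 arrays in each of these groups except resting control cells, where it was so on 3. It passed the filter through resting control cells alone, which favours a fall in control cells.

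Ikzf4 encodes Eos, a corepressor partner of Foxp3 in regulatory T cells, and 1 of its probes rose with stimulation in both genotypes. A_55_P1979674 read -4.62, -4.02 and -4.54 in stimulated knockout cells, against -7.02, -6.96 and -6.98 in resting knockout cells, where 1 of 3 arrays was well above background. It read -4.73, -4.51 and -5.09 in stimulated control cells, 2 of 3 of them well above background, against -8.65, -8.54 and -7.90 in resting control cells, where no array was. Every stimulated array lay above every resting one. The probe passed the filter through stimulated knockout cells alone, which favours a rise in knockout cells. The change was 2.59 (SE 0.24, adjusted p = 0.000101) in knockout cells, whose size rests on resting signals of which 2 of 3 were not well above background. In control cells it was 3.59 (SE 0.24, adjusted p = 6.63e-06). With the resting level set at the lowest signal detected on those arrays, or the probe's own if higher, this was 8.52-fold. A spot not well above background can exceed that lowest signal. On stimulated control replicate 2 this probe read -4.51 undetected, against a lowest detected signal of -5.94, and that array counts in the mean. The value is therefore not a strict lower bound, and it holds only for the scaling and background correction used here. With normexp background correction the change was 1.25 (adjusted p = 0.00859) in knockout cells and 1.51 (adjusted p = 0.00155) in control cells. The summed linear level of 3 regulatory T cell markers ran between 1.14 and 1.53 in stimulated knockout cells, against 0.102 to 0.244 in resting knockout cells, and between 1.20 and 1.49 in stimulated control cells, against 0.0413 to 0.0559 in resting control cells. That of 9 T cell markers ran between 5.14 and 5.34 in stimulated knockout cells, against 0.948 to 1.67 in resting knockout cells, and between 2.55 and 3.24 in stimulated control cells, against 0.775 to 1.08 in resting control cells. That of 8 NK cell markers ran between 9.25 and 22.1 in stimulated knockout cells, against 0.635 to 0.837 in resting knockout cells, and between 1.20 and 1.60 in stimulated control cells, against 0.361 to 0.554 in resting control cells. These sums do not stand for every member. Of 3 regulatory T cell markers 2 were tested, Foxp3 not among them, and 1 was called higher in each genotype. Of 8 tested T cell markers 2 were called higher and 1 lower in knockout cells, and 1 higher and 2 lower in control cells. Their median change was -0.25 and -0.54 in the same order. Of 6 tested NK cell markers 3 were higher in knockout cells and 1 in control cells, with medians of 1.45 and -0.13. Of all tested probes 7.96% and 11.2% were higher. The part of these cells in the Ikzf4 values was not tested, and Foxp3, the defining regulatory T cell marker, was well above background on 5 of 12 arrays.

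A second Ikzf4 probe was called in control cells. A_55_P2119917 averaged -4.94 ± 0.35 in stimulated control cells, against -6.59 ± 0.75 in resting control cells, a change of 1.65 (SE 0.46, adjusted p = 0.0180) that missed the threshold without resting control replicate 1 (1.26), stimulated control replicate 1 (1.57) or stimulated control replicate 2 (1.53), and was 1.19 (adjusted p = 0.152) without both arrays of control replicate 1. It averaged -4.19 ± 0.07 in stimulated knockout cells, against -4.64 ± 0.91 in resting knockout cells, where the change was 0.45 (SE 0.46, adjusted p = 0.568) and differed between slide 1 (-0.08) and slide 2 (1.51). A_55_P1979682 was not tested. It averaged -7.20 ± 0.29 in stimulated knockout cells, against -6.56 ± 1.06 in resting knockout cells, and -7.25 ± 1.12 in stimulated control cells, against -5.94 ± 0.78 in resting control cells, and was well above background on 4 arrays in all. Its groups overlapped in every comparison, so it gives no direction.

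Ikzf5 encodes Pegasus, and 1 of its 2 probes fell with stimulation in both genotypes. A_52_P582261 read -3.80, -3.57 and -4.18 in stimulated knockout cells, against -3.08, -3.07 and -3.31 in resting knockout cells. It read -3.74, -4.02 and -4.01 in stimulated control cells, against -3.17, -3.08 and -3.37 in resting control cells. The stimulated and resting groups did not overlap in either genotype, and the changes were -0.69 (SE 0.18, adjusted p = 0.0200) in knockout cells and -0.72 (SE 0.18, adjusted p = 0.00976) in control cells. The call in knockout cells was lost without resting knockout replicate 1 (-0.66), resting knockout replicate 2 (-0.65) or stimulated knockout replicate 3 (-0.53). The other probe, A_66_P123989, gave -0.08 (SE 0.19, adjusted p = 0.841) in knockout cells and -0.53 (SE 0.19, adjusted p = 0.0555) in control cells, where the fit with the replicate number as a block gave an adjusted p of 0.0423.

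Ikzf2 encodes Helios and stayed near background. A_66_P122551 averaged -6.24 ± 0.17 in stimulated knockout cells (2 of 3 arrays well above background), -7.14 ± 1.00 in stimulated control cells (1 of 3), -5.95 ± 0.75 in resting knockout cells (2 of 3) and -7.21 ± 1.07 in resting control cells (1 of 3). A_52_P413515 was well above background on 2 arrays, both of replicate 3 of knockout cells. Its 3 resting knockout arrays (-6.88, -7.56 and -6.71) lay above its 3 resting control arrays (-8.46, -8.37 and -7.97), of which none was well above background. Neither probe was tested, and the groups overlapped in the other genotype comparisons of both probes.

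Counted over the 7 tested probes, 3 were called for stimulation in knockout cells, 1 higher and 2 lower, where 21.6% of all tested probes were called (7.96% higher and 13.6% lower). In control cells 6 were called, 2 higher and 4 lower, where 37.8% of all tested probes were called (11.2% higher and 26.6% lower). The members' count is a description, because some probes passed the filter only through the group where they were high. The median change was -0.29 over the family probes, against -0.23 over all tested probes, in knockout cells, and -0.72, against -0.35, in control cells. Relative to these medians of all probes, Ikzf1 A_66_P124139 changed by -0.49 in knockout and -0.88 in control cells, Ikzf3 by -0.09 and -1.04, Ikzf4 A_55_P1979674 by 2.82 and 3.93, and Ikzf5 A_52_P582261 by -0.47 and -0.37. The share of higher among all called probes depended on the scaling: it was 36.9% in knockout cells and 29.5% in control cells here, against 69.0% and 53.6% with the percentile taken over all spots, 65.5% and 54.3% with the array median, and 53.5% and 43.0% with quantile normalization.

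**Figure D2:**
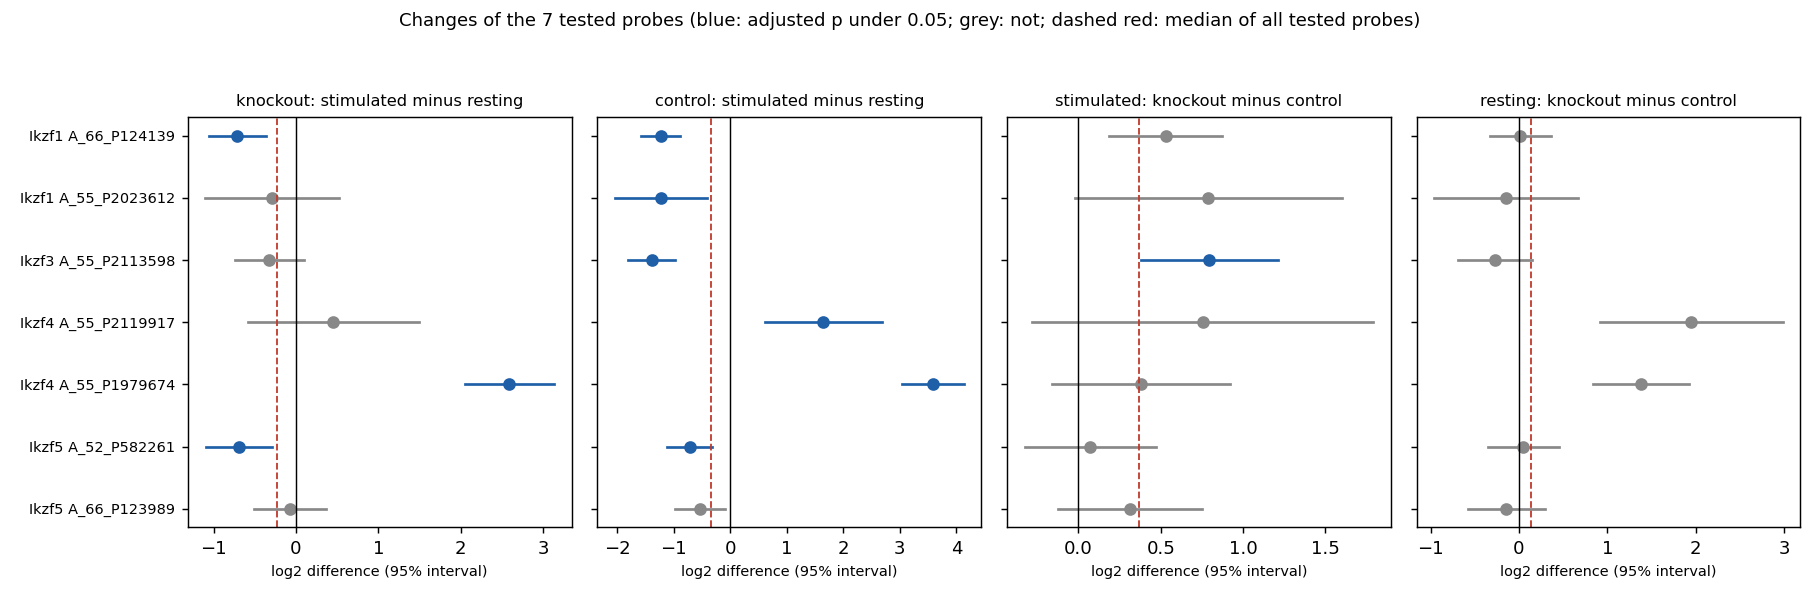
Log2 differences of the 7 tested probes on the x axis, with 95% intervals, for stimulation in knockout and control cells and for knockout against control in stimulated and resting cells. Blue marks an adjusted p under the threshold and the dashed line the median of all tested probes; Ikzf4 A_55_P1979674 lies farthest to the right of the 7 in both stimulation panels, at 2.59 and 3.59.

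The knockout comparison asks whether loss of Sub1 moved the family's transcripts. In stimulated cells Ikzf3 was higher in knockout than in control cells under the scaling used here. It averaged -5.14 ± 0.13 in stimulated knockout cells and -5.94 ± 0.29 in stimulated control cells, a change of 0.80 (SE 0.19, 1.74-fold higher, adjusted p = 0.0290) with no overlap of the groups. The change was 0.92 within slide 1 and 0.54 within slide 2. Relative to the median of all tested probes, which was itself 0.37, it was 0.43. With the replicate number as a block the adjusted p was 0.00919.

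This call rests on the scaling and on single arrays. The Ikzf3 change was 0.40 (adjusted p = 0.390) with the percentile over all spots, 0.11 (adjusted p = 0.921) with quantile normalization, 0.47 (adjusted p = 0.156) with normexp background correction, and -0.16 (adjusted p = 0.811) with the array median. It missed the threshold without any 1 of 5 of the 6 stimulated arrays, at values between 0.64 without stimulated control replicate 2, whose Ikzf3 spot was not well above background, and 0.86 without stimulated knockout replicate 2. Only without stimulated control replicate 3 did it pass (0.92, adjusted p = 0.0227). Without both arrays of control replicate 1 it was 0.83 (adjusted p = 0.105).

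Ikzf1 A_66_P124139 was also higher on every stimulated knockout array than on every stimulated control array, at -1.96 ± 0.21 and -2.49 ± 0.16, but its change of 0.53 (SE 0.15, adjusted p = 0.0561) missed the threshold. With the replicate number as a block it passed (adjusted p = 0.0227), but it was called in only 5 of 27 alternatives. It was 0.13 (adjusted p = 0.722) with the percentile over all spots and 0.39 (adjusted p = 0.284) with quantile normalization. The other values were 0.79 (adjusted p = 0.174) for Ikzf1 A_55_P2023612, 0.75 (adjusted p = 0.296) and 0.38 (adjusted p = 0.312) for Ikzf4 A_55_P2119917 and A_55_P1979674, and 0.07 (adjusted p = 0.822) and 0.31 (adjusted p = 0.301) for Ikzf5 A_52_P582261 and A_66_P123989. The array median shifted all probes alike and put all 7 values below 0, while the values relative to the median of all probes stayed at 0.43 for Ikzf3 and 0.16 for Ikzf1 A_66_P124139. Of the 7 probes 1 was called, where 10.2% of all tested probes were (8.55% higher and 1.68% lower). Among all called probes 83.6% were higher here, against 33.5% with the percentile over all spots, 11.1% with the array median, 55.1% with quantile normalization and 65% with normexp.

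Summed markers of B cells, plasma cells and other cells differed in this comparison under the scaling used here. The summed B cell markers ran between 33.4 and 37.9 in stimulated knockout cells, against 23.5 to 31.9 in stimulated control cells, with 2 of 10 tested members higher and 1 lower. Their median change was 0.46, against 0.37 over all tested probes. The lower member was Cd79a, the gene that carries the Mb1-Cre insertion (-0.69, limma adjusted p = 0.0418). Cd79a was also lower in resting knockout against resting control cells (-1.19, adjusted p = 0.0410). The part of the insertion in these values was not tested. The plasma cell markers ran between 11.8 and 16.1 in stimulated knockout cells, against 20.7 to 29.0 in stimulated control cells, with 4 of 6 lower. The NK cell markers ran between 9.25 and 22.1 in stimulated knockout cells, against 1.20 to 1.60 in stimulated control cells, and 3 of 6 tested members were higher. The T cell markers ran between 5.14 and 5.34 in stimulated knockout cells, against 2.55 to 3.24 in stimulated control cells, with 4 of 8 higher. The 11 myeloid markers ran between 1.83 and 2.12 in stimulated knockout cells, against 0.434 to 1.23 in stimulated control cells, with 5 of 10 higher. Of all tested probes 8.55% were higher and 1.68% lower in this comparison. Ikaros genes are also transcribed in T and NK cells, and the part of these cells in the Ikzf values was not tested.

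In resting cells no family probe was called between genotypes, where limma called 0.232% of all tested probes (0.206% higher and 0.0266% lower). An unadjusted p under 0.05 was found for 2 of the 7, against 16.5% of all tested probes. Both were Ikzf4 probes that had passed the filter only through knockout cells, which favours higher knockout values. The count is therefore only a description. Ikzf1 A_66_P124139 averaged -1.24 ± 0.13 in resting knockout cells and -1.26 ± 0.12 in resting control cells, and the 95% interval of the difference ran between -0.33 and 0.36. Ikzf5 A_52_P582261 averaged -3.16 ± 0.13 and -3.21 ± 0.15 in the same order, with an interval between -0.35 and 0.45. Ikzf3 averaged -4.82 ± 0.22 in resting knockout cells and -4.55 ± 0.17 in resting control cells (change -0.27, SE 0.19, adjusted p = 0.517). The differences of Ikzf1 A_55_P2023612 and Ikzf5 A_66_P123989 were -0.15 (adjusted p = 0.919) and -0.14 (adjusted p = 0.804).

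Ikzf4 gave the widest gaps between the resting genotypes, but its tested probes had passed the filter only through knockout cells, which favours higher knockout values. A_55_P2119917 read -3.98, -4.26 and -5.68 in resting knockout cells, against -7.36, -5.87 and -6.54 in resting control cells. A_55_P1979674 read -7.02, -6.96 and -6.98 in resting knockout cells, 1 of 3 well above background, against -8.65, -8.54 and -7.90 in resting control cells, none of them well above background. The groups did not overlap for either probe, yet the changes of 1.95 (SE 0.46, adjusted p = 0.115) and 1.38 (SE 0.24, adjusted p = 0.0635) missed the threshold. The change of A_55_P2119917 was 2.49 within slide 1 and 0.86 within slide 2, and it passed the test without resting knockout replicate 3 (2.47, adjusted p = 0.0388). That of A_55_P1979674 passed without stimulated control replicate 2 (adjusted p = 0.0496). Neither was called under another scaling or background correction: A_55_P1979674 gave 0.42 (adjusted p = 0.706) with quantile normalization, 0.40 (adjusted p = 0.557) with normexp and 0.42 (adjusted p = 0.416) with the array median. A_55_P2119917 gave 1.08 (adjusted p = 0.283), 0.91 (adjusted p = 0.309) and 0.99 (adjusted p = 0.0980) under the same choices. The summed myeloid markers ran between 6.58 and 10.0 in resting knockout cells, against 2.59 to 4.81 in resting control cells. The regulatory T cell markers ran between 0.102 and 0.244 in resting knockout cells, against 0.0413 to 0.0559 in resting control cells, and of their 2 tested members Il2ra was higher (1.41, adjusted p = 0.0387). The plasma cell markers ran between 11.8 and 16.6 in resting knockout cells, against 5.59 to 6.67 in resting control cells. Yet 0 of 6 plasma cell markers and 1 of 10 tested myeloid markers were called between the resting genotypes, the latter higher. Of all tested probes 0.206% were called higher. The part of these cells in the Ikzf4 values was not tested. The third probe, A_55_P1979682, overlapped between these groups.

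Whether the response to stimulation differed between genotypes was tested as an interaction, the change in knockout minus that in control cells. No family probe was called by limma, where 1.32% of all tested probes were (0.7% higher and 0.62% lower). An unadjusted p under 0.05 was found for 3 of the 7, against 15% of all tested probes. They were Ikzf1 A_66_P124139, Ikzf3 and Ikzf4 A_55_P1979674. The Ikzf3 and Ikzf4 probes had passed the filter only through the group where they were high, so the count is only a description. Ikzf3 came nearest, at 1.07 (SE 0.26, adjusted p = 0.0827), with 1.22 within slide 1 and 0.77 within slide 2. It passed with the replicate number as a block (adjusted p = 0.0336) or with the slide as a term (adjusted p = 0.0339). These were the only calls among 24 alternatives. It was 1.02 (adjusted p = 0.343) with the percentile over all spots and 0.47 (adjusted p = 0.581) with normexp background correction. Ikzf1 A_66_P124139 gave 0.52 (SE 0.22, adjusted p = 0.299), Ikzf4 A_55_P1979674 -0.995 (SE 0.34, adjusted p = 0.200) and Ikzf5 A_52_P582261 0.02 (SE 0.25, adjusted p = 0.993). Ikzf1 A_55_P2023612 gave 0.94 (SE 0.51, adjusted p = 0.457), Ikzf4 A_55_P2119917 -1.20 (SE 0.66, adjusted p = 0.459) and Ikzf5 A_66_P123989 0.46 (SE 0.28, adjusted p = 0.515). A difference between the genotypes in the Ikzf3 response is therefore not shown by the test used here.

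**Figure D3:**
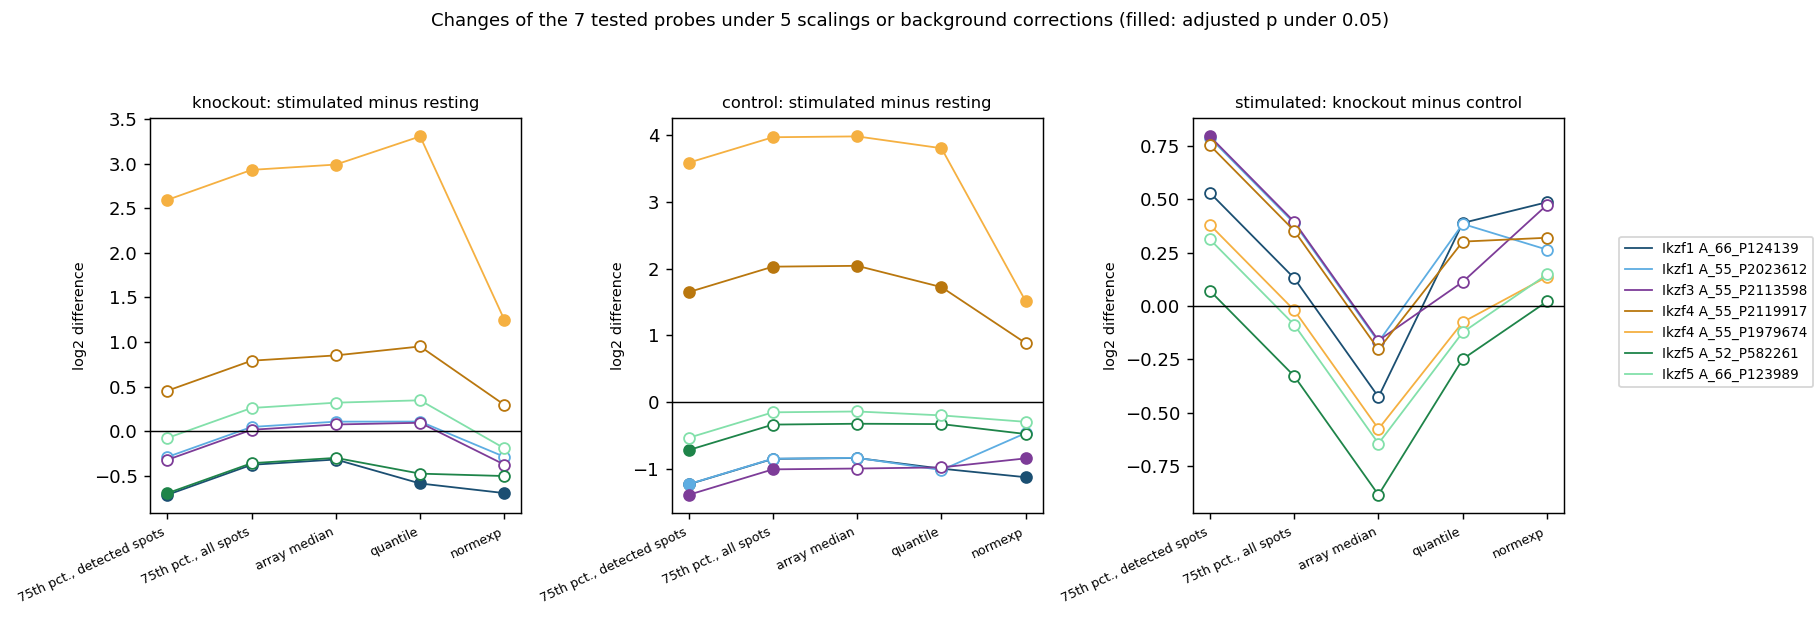
Log2 differences of the 7 tested probes on the y axis under 5 scalings or background corrections on the x axis, for stimulation in knockout cells, stimulation in control cells and knockout against control in stimulated cells. Points are filled where the adjusted p is under the threshold and 1 line joins the values of a probe; Ikzf4 A_55_P1979674 is filled at every point of both stimulation panels, while Ikzf3 in the third panel lies at 0.80 with the scaling used here and at -0.16 with the array median.

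Calls of stimulation changes were counted over the alternatives. Ikzf4 A_55_P1979674 was called in 24 of 24 alternatives in both genotypes, at changes between 1.25 and 3.30 in knockout cells and between 1.51 and 4.01 in control cells. Ikzf1 A_66_P124139 was called in 23 of 27 alternatives in knockout and 26 of 27 in control cells, and was lower in all of them. Ikzf3 in control cells was called in 23 of 25, Ikzf5 A_52_P582261 in 16 of 27 for knockout and 20 of 27 for control cells, and both were lower in all. Ikzf3 had passed the filter only through resting control cells, which favours a fall in control cells. Ikzf4 A_55_P1979674 had passed only through stimulated knockout cells, which favours a rise in knockout cells. These counts describe dependence on the processing and do not remove that limit. With the array median the control cell values were -0.83 (adjusted p = 0.196) for Ikzf1 A_66_P124139, -0.99 (adjusted p = 0.145) for Ikzf3 and -0.32 (adjusted p = 0.702) for Ikzf5 A_52_P582261. With the percentile over all spots the knockout cell values were -0.38 (adjusted p = 0.281) for Ikzf1 A_66_P124139 and -0.36 (adjusted p = 0.380) for Ikzf5 A_52_P582261, and the control cell value of Ikzf5 A_52_P582261 was -0.33 (adjusted p = 0.348). Ikzf3 in stimulated knockout against stimulated control cells was called in 11 of 25.

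Across the 12 arrays Ikzf1 A_66_P124139 and Ikzf3 had a Pearson correlation of 0.91, and Ikzf1 A_66_P124139 and Ikzf4 A_55_P1979674 of -0.81. The 2 Ikzf1 probes correlated at 0.73, the 2 tested Ikzf4 probes at 0.71 and the 2 Ikzf5 probes at 0.76. These describe 4 groups on shared slides rather than independent samples, and after the group means were taken off, Ikzf1 A_66_P124139 and Ikzf3 correlated at 0.34. Among 12163 named genes, the 3 whose levels most resembled Ikzf1 A_66_P124139 were Zfp53 (0.992), Zfp638 (0.985) and Sp100 (0.984). For Ikzf3 they were Smcr8 (0.983), Myl12a (0.979) and Erlec1 (0.978). For Ikzf4 A_55_P2119917 they were Cit (0.939), Plekhf1 (0.936) and Farp1 (0.932), and for Ikzf5 A_52_P582261 Gatd3a (0.975), Msl2 (0.974) and Cstf2t (0.972).

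Genes of the complexes that Ikaros recruits were examined as background to the family. Of 13 tested NuRD genes, which form a nucleosome remodelling and histone deacetylase complex, 2 rose and 2 fell with stimulation in knockout cells, and 1 rose and 5 fell in control cells. Of all tested probes 7.96% rose and 13.6% fell in knockout cells, and 11.2% rose and 26.6% fell in control cells. Over the alternatives 0 to 3 NuRD genes fell in knockout cells and 0 to 5 in control cells. Gatad2a, a zinc finger subunit, changed by -0.73 (SE 0.15, adjusted p = 0.00761) in knockout cells and -1.55 (SE 0.15, adjusted p = 4.23e-05) in control cells. Mta3, a subunit linked to B cell fate through Bcl6, changed by -0.86 (adjusted p = 0.00456) and -1.37 (adjusted p = 0.000125). The remodelling ATPase Chd4, Mi-2 beta, changed by -0.89 (adjusted p = 0.0355) in control cells, and the histone-binding subunit Rbbp7 rose by 0.75 (adjusted p = 0.0369) in knockout cells. The median change of the list was 0.12 in knockout cells, against -0.23 over all tested probes, and -0.28 in control cells, against -0.35 over all tested probes.

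Of 12 tested SWI/SNF genes, which form an ATP-dependent remodelling complex, 3 fell with stimulation in knockout cells and 6 in control cells, and none rose, beside the 13.6% and 26.6% of all tested probes that fell. Over the alternatives 0 to 4 fell in knockout cells and 1 to 6 in control cells. The ATPase Smarca2 changed by -1.09 (SE 0.30, adjusted p = 0.0268) in knockout and -2.02 (SE 0.30, adjusted p = 0.000501) in control cells. The DNA-binding subunits Arid1a and Arid1b changed by -0.80 (adjusted p = 0.0211) and -0.63 (adjusted p = 0.00629) in knockout cells, and by -1.15 (adjusted p = 0.00171) and -1.18 (adjusted p = 6.91e-05) in control cells. With the percentile over all spots 1 SWI/SNF gene rose and 3 fell in control cells, and with the array median 1 fell. The list's median was -0.29 in knockout and -0.48 in control cells.

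Of 4 CtBP and Sin3 corepressor genes 3 were tested, Ctbp2 not being above background on all arrays of any group. None was called in knockout cells, where Sin3b gave 0.31 (adjusted p = 0.129), and in control cells Sin3a fell by 0.50 (adjusted p = 0.0224) and Sin3b rose by 0.49 (adjusted p = 0.0137). Of 5 cereblon ligase genes, Crbn, the substrate receptor, fell with stimulation by 1.12 (SE 0.14, adjusted p = 0.000567) in knockout and by 1.83 (SE 0.14, adjusted p = 1.36e-05) in control cells. Ddb1, the adaptor, rose by 0.42 (adjusted p = 0.0397) in control cells.

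Of 12 genes known to be bound or regulated by Ikaros or Aiolos in early B cells 7 were tested, and Igll1, Dntt, Rag1, Rag2 and Il7r were not above background on all arrays of any group. With stimulation 1 rose and 2 fell in each genotype. Of all tested probes 7.96% rose and 13.6% fell in knockout cells, and 11.2% rose and 26.6% fell in control cells. Ccnd2, the G1 cyclin of B cells, changed by 1.75 (SE 0.19, adjusted p = 0.000219) in knockout and 3.03 (SE 0.19, adjusted p = 4.78e-06) in control cells. Ebf1, a B lineage factor, changed by -1.21 (adjusted p = 0.00532) and -2.47 (adjusted p = 3.69e-05), and Foxo1, a quiescence factor, by -1.23 (adjusted p = 0.000715) and -1.23 (adjusted p = 0.000278).

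**Figure D4:**
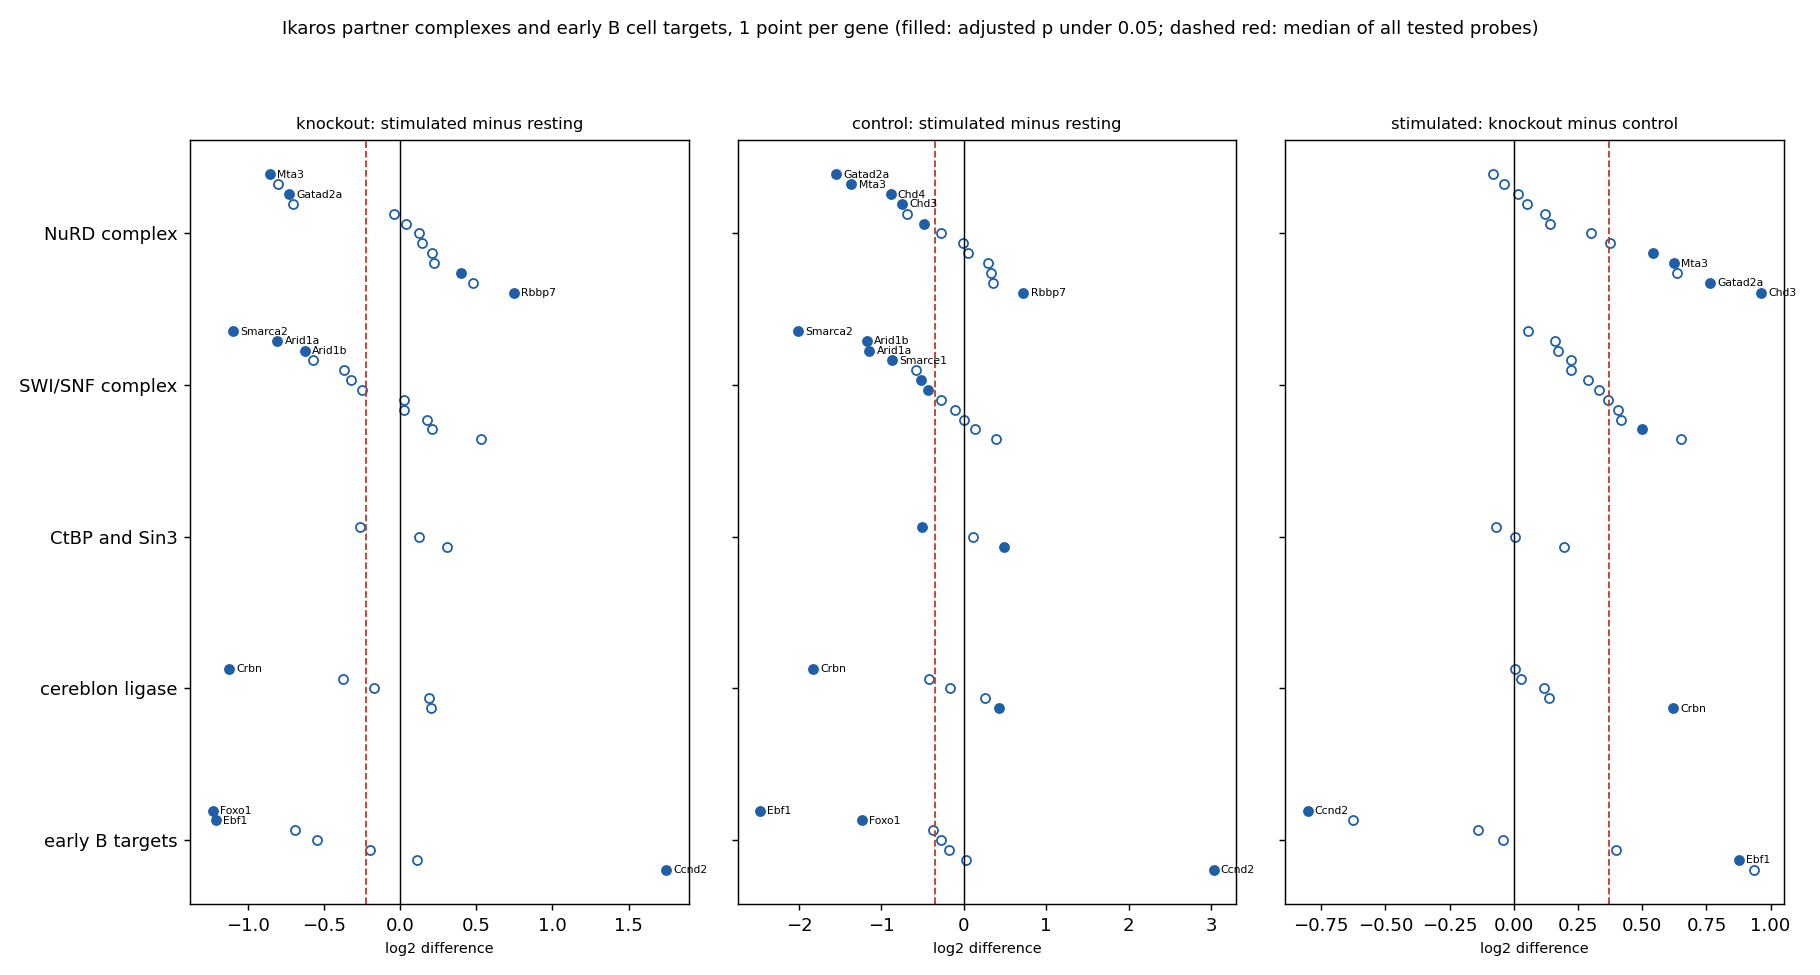
Log2 differences of the tested genes of 5 lists on the x axis, 1 point per gene, filled where the adjusted p is under the threshold, for stimulation in knockout cells, stimulation in control cells and knockout against control in stimulated cells. The dashed line is the median of all tested probes; Smarca2, Gatad2a, Mta3, Crbn and Ebf1 lie to its left in both stimulation panels and Ccnd2 to its right.

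In stimulated knockout against stimulated control cells 4 of 13 NuRD genes, 1 of 12 SWI/SNF genes, 1 of 5 cereblon ligase genes and 1 of 7 early B cell genes were higher, where 8.55% of all tested probes were. Of the early B cell genes 1 was lower, where 1.68% of all tested probes were. Over the alternatives 0 to 4 NuRD genes were higher. Chd3, the Mi-2 alpha ATPase, gave 0.96 (SE 0.19, adjusted p = 0.0154), Gatad2a 0.77 (adjusted p = 0.0174), Mta3 0.62 (adjusted p = 0.0405), Arid1b 0.50 (adjusted p = 0.0376) and Crbn 0.62 (adjusted p = 0.0287). Ebf1 gave 0.88 (adjusted p = 0.0456) and Ccnd2 -0.80 (adjusted p = 0.0296), and Sin3a, the CtBP and Sin3 gene with the smallest p, gave 0.19 (adjusted p = 0.397). None of the 4 higher NuRD genes was called with the percentile over all spots or with the array median. With the array median Gatad2a turned to -0.19, Mta3 to -0.33, Crbn to -0.34, Arid1b to -0.46 and Ebf1 to -0.08. Chd3 was at 0.00 with the array median, and Ccnd2 was below 0 under all alternatives run (-1.76 to -0.70).

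No gene of the 5 lists was called between genotypes in resting cells, where the smallest p values belonged to Hdac2 (0.54, adjusted p = 0.289), Smarca2 (-0.27, adjusted p = 0.738), Sin3b (0.11, adjusted p = 0.761), Ddb1 (0.25, adjusted p = 0.423) and Ccnd2 (0.48, adjusted p = 0.256). None was called for the interaction either, with Gatad2a (0.83, adjusted p = 0.0965), Arid1b (0.55, adjusted p = 0.173), Sin3a (0.24, adjusted p = 0.718), Crbn (0.71, adjusted p = 0.128) and Ccnd2 (-1.29, adjusted p = 0.0532) nearest in their lists.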

How the data were processed

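The authors hybridised Cy3-labelled RNA of 12 samples to one-colour Agilent arrays, 1 per sample. The deposited intensity values are background-subtracted processed signals from Feature Extraction 10.7.3.1, per the file headers (the submitters' processing notes name version 9.1); the deposited value table holds the same intensities, rounded to within 0.497%. The intensity was taken to log2 and each array's 75th percentile over the 12698 non-control spots well above background on all arrays was subtracted. Control spots and outlier flags were left out, spots of a probe were averaged, and a probe was tested where some group had all 3 arrays well above background for it (26271 probes). A model with 4 group means was fitted with limma 3.58.1 (lmFit and eBayes) in R 4.3.3, with Benjamini-Hochberg adjustment over all tested probes and a threshold of 0.05. Accessions were named through the RefSeq GRCm38.p6 table (26413 of 55681 probes), the annotation in the files being older. The script was tested on simulated data.

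Every probe of the 5 genes is named, those that were tested in every comparison. From each list of partners, the called genes with the largest change were named, up to 3, or where none was called the gene with the smallest p. The members and lists were chosen with earlier results of these data known. Same-numbered replicates deviated together in stimulated cells of both genotypes (correlations of 0.35, 0.33 and 0.48) and in control cells (0.41, 0.42 and 0.51). They did not all do so in resting cells (-0.11, 0.20 and 0.39) or in knockout cells (0.00, 0.15 and 0.39). Differently numbered samples were not compared and the slide follows the replicate number, so whether the numbers pair the samples was not tested. Slide 1 held replicates 1 and 2, slide 2 held replicate 3. Alternatives were other scalings, background corrections, filters, value sources, covariates, samples in the fit and leaving out each array.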

Additional observations from a re-analysis of the deposited data

How the results depend on the processing

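Signs of the stimulation changes of Ikzf1 A_66_P124139, Ikzf3 in control cells, Ikzf4 A_55_P1979674 and Ikzf5 A_52_P582261 were the same under all alternatives run. The count of family probes called in stimulated knockout against stimulated control cells (1) was 0 with the percentile over all spots, the array median, quantile normalization, normexp, no filter or only the 2 groups in the fit, and 2 with the replicate block or the slide as a term. Among alternatives chosen after seeing the data it was 0 when centred on the median of tested probes, without both arrays of control replicate 1, or with quantile normalization and the filter on all 12 arrays together. Leaving out 1 array gave 0 to 3. The Ikzf3 change in this comparison was -0.16 with the array median. For stimulation in knockout cells (3) the count was 1 with the percentile over all spots, the array median, no filter, the centring or quantile normalization with the filter, and 2 to 3 without 1 array. For stimulation in control cells (6) it was 2 with the array median, 3 with quantile normalization, normexp or no filter, 2 with the filter on all 12 arrays, which left 2 probes to test, 1 with that filter and quantile normalization, and 4 to 7 without 1 array. In resting cells (0) it was 0 to 1 without 1 array, and for the interaction (0) it was 1 with the replicate block or the slide and 0 without 1 array. The replicate block changed no other count by more than 1.5 times. The cause of these shifts was not tested. Of all called probes, 88.5% were higher in resting knockout against resting control cells, against 66.7%, 0% and 68.4% with the percentile over all spots, the array median and quantile normalization; for the interaction the share was 53.0%, against 32.4%, 27.3%, 36.8% and, with normexp, 33.2%. Low signal over background limits Ikzf2, Ikzf3 and Ikzf4.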
